A study of Mus musculus with 5 samples.

Results

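Transcript levels of 10 regulators of DNA methylation and chromatin were examined in haematopoietic stem cells (HSCs) sorted from the bone marrow of mice. The 10 genes are the DNA methyltransferases Dnmt1, Dnmt3a and Dnmt3b, the TET dioxygenases Tet1, Tet2 and Tet3, the Polycomb group genes Asxl1, Ezh2 and Bmi1, and the Trithorax gene Kmt2a. They were taken by gene name from a table of 55335 genes, in which each name occurred once, and all 10 had at least 1 TPM in at least 2 libraries, the level required for testing. TPM is a gene's share of the length-corrected transcripts of its library, scaled to a total of 1000000, so levels of different genes can be compared with each other. Bulk RNA sequencing gave 5 libraries, 3 wild-type (wt) and 2 labelled RankCre-ki, all from mice of strain C57BL/6J at 3 weeks of age according to the labels. RankCre-ki stands for Rank cre/+;Csf1r fl/-, that is, Cre placed in the Rank gene (Tnfrsf11a) together with 1 floxed and 1 null allele of Csf1r, the receptor that embryonic macrophages need. For the wt mice no engineered allele is given. HSCs were sorted as cells that lack lineage markers and CD48 and carry Kit, Sca-1 and CD150.

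The genotype has limits as a model for HSCs. HSCs are not a target of this Cre, which the study uses to remove Csf1r from macrophages that arise in the embryo, osteoclasts among them, and the bone of these mice is abnormally dense. A difference seen in HSCs is therefore one between cells from different animals, not between cells with and without a gene. The null allele of Csf1r, in contrast, is carried by every cell, and the line that holds it was kept on C3H/HeJ. Each library is a pool of 80 to 90 cells, read from the number in its name, and no source used here says whether 1 animal or several gave a pool, so the spread between libraries may be partly technical. The library names form 2 series. Series 1 holds wt replicate 1 and RankCre-ki replicate 2, and series 2 holds wt replicates 2 and 3 with RankCre-ki replicate 1. The study's methods name 2 tagmentation kits used on sets of this same composition, but no label assigns a library to a kit.

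In blood stem cells DNA methylation is set by de novo methyltransferases and copied after replication by a maintenance enzyme, and TET enzymes start its removal by oxidising the methyl group. Polycomb complexes keep genes silent by methylating histone H3 at lysine 27 (PRC2) and ubiquitylating histone H2A (PRC1), while the deubiquitylase PR-DUB takes the latter mark away and Trithorax complexes methylate histone H3 at lysine 4 at active genes. Several of these genes, among them Dnmt3a, Tet2 and Asxl1, are known for mutations found in clonal haematopoiesis, and Bmi1 and Kmt2a for their need in HSC self-renewal.

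Promoter sequence was available from RefSeq (build GRCm38.p6) for all 10 genes, as 14 windows of 300 bases that end 50 bases after a transcription start. Dnmt1 and Dnmt3a had 3 windows each and the others 1. CpG dinucleotides, the substrate of the methyltransferases themselves, numbered 2 to 57 per window (median 26.5), against a median of 7 over all 32851 windows of the mouse genes in the table, and 13 of the 14 windows lay above that median. The exception was the most upstream Dnmt1 window (2 CpG, chr9:20959839-20960138), while another Dnmt1 window held 33. The highest count was that of Tet2, with 57. The letters GGGCGG, a GC box, were searched on both strands and stood in 11 of 14 windows, against 35.7% of all windows. CCAAT stood in 4 of 14 windows against 37.4%, and TATAAA in 0 of 14 against 13.6%. The E2F motif in the spellings TTTGGCGC, TTTCGCGC and TTTCCCGC, again on both strands, stood in 2 of 14 windows, 1 of Dnmt1 and that of Ezh2, against 1.84% of all windows. These matches describe letters, not bound sites, and the TPM are summed over a gene's starts, so they do not tell which Dnmt1 or Dnmt3a start was in use.

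The windows of the 3 genes whose RankCre-ki libraries both lay above all wt libraries are shown with GC boxes in capitals (GGGCGG, or CCGCCC where the box is on the other strand), each 5′ to 3′ along its gene.
Dnmt3b, chr2:153649199-153649498, plus strand: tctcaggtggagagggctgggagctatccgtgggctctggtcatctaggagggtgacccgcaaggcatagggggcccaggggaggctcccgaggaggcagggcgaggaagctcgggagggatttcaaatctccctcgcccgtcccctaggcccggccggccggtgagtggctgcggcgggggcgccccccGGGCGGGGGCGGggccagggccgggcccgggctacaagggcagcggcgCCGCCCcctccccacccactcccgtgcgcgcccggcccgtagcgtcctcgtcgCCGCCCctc
Tet1, chr10:62887275-62887574, minus strand: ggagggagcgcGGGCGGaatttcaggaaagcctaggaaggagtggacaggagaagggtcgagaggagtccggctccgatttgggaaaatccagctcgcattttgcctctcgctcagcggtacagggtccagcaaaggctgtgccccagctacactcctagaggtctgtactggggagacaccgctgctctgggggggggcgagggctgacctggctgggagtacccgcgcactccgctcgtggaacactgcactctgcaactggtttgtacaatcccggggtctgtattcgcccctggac
Kmt2a, chr9:44881240-44881539, minus strand: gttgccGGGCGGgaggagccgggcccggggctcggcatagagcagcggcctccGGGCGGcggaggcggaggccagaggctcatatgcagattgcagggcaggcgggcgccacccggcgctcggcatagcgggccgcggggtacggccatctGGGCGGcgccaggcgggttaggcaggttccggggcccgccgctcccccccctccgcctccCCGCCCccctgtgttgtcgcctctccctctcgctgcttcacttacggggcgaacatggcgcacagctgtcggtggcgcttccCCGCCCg

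The windows of the 2 genes with an E2F match, both of them genes of proliferating cells, are shown with that match in capitals, on either strand.
Dnmt1, chr9:20952574-20952873, minus strand: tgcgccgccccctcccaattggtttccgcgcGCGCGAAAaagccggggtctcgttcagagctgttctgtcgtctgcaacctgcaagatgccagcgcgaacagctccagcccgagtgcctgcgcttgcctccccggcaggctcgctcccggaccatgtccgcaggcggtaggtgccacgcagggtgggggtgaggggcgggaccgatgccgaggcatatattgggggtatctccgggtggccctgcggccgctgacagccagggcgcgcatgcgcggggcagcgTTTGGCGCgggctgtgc
Ezh2, chr6:47594981-47595280, minus strand: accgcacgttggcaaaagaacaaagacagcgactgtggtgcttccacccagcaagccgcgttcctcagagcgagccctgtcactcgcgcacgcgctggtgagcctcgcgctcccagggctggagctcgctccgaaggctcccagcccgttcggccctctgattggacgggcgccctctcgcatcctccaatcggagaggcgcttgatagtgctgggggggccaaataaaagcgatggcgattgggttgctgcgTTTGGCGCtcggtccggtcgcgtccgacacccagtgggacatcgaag

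None of the 10 regulators passed the study's threshold between RankCre-ki and wt HSCs, an adjusted p of at most 0.1 with an absolute log2 fold change above 2 (limma, 2-sided, adjusted by Benjamini-Hochberg over 13981 tested genes). The threshold was passed by 0 of all tested genes (0%). The study applied it to counts in a different test and reports genes past it in both directions. The 0 therefore holds for limma on log2(TPM + 1) only. Adjusted p ran from 0.859 for Tet1 to 0.996 for Tet2, against a smallest adjusted p of 0.521 over all genes. At an unadjusted p under 0.05 the count among the regulators was also 0, where 6.34% of all tested genes were higher and 0.529% lower in RankCre-ki. Before any test, 8 regulators had a positive and 2 (Dnmt1 and Bmi1) a negative log2 difference, in a table in which 72.3% of tested genes were positive. Dnmt3b, Tet1 and Kmt2a had both RankCre-ki libraries above all 3 wt libraries, 3 of 10 where 18.8% of all tested genes did so, and none had both below, where 3.71% of all genes did. The median log2 difference of the 10 was 0.75, which is 0.24 above the median of all tested genes, 0.52. That shift of all genes depends on the scaling. Median-ratio scaling brought it to 0.16 and quantile normalization to -0.09, and the shares of genes lying above and below then became 12.2% and 8.88%, or 11.6% and 11.2%. All log2 differences given here are on the log2(TPM + 1) scale, RankCre-ki minus wt, with the limma SE, and are read against this shift. The smallest p that an exact permutation of 3 against 2 libraries can give is 0.2.

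**Figure D1:**
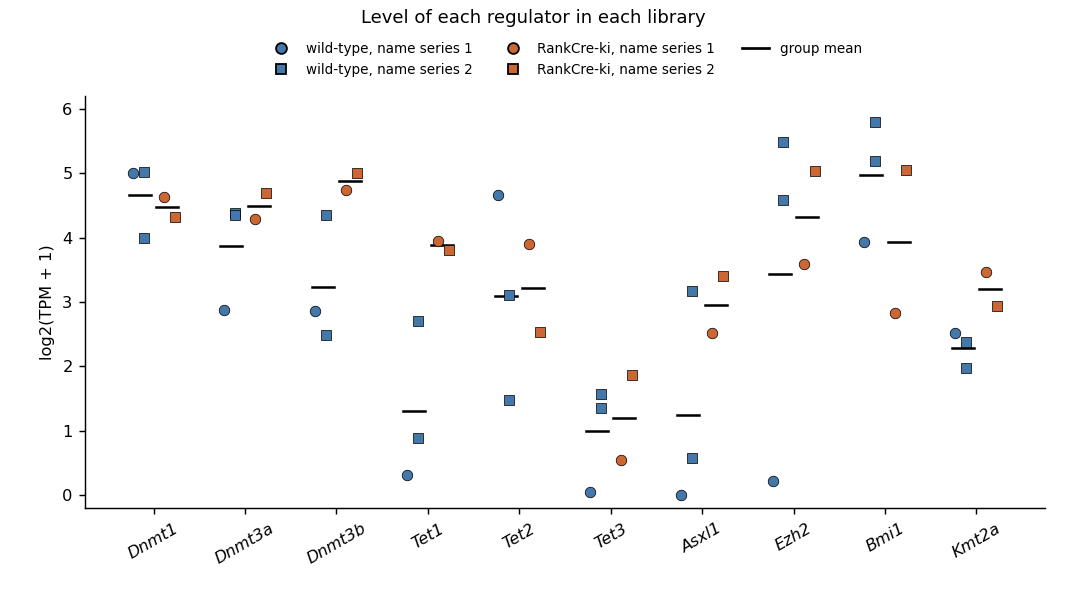
The level of each regulator, as log2(TPM + 1), is plotted for the 5 libraries, with wt in blue, RankCre-ki in orange, circles for name series 1, squares for name series 2 and a bar for each group mean. The 2 RankCre-ki points of Dnmt3b, Tet1 and Kmt2a sit above all 3 wt points, whereas those of the other 7 genes overlap the wt range.

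**Figure D2:**
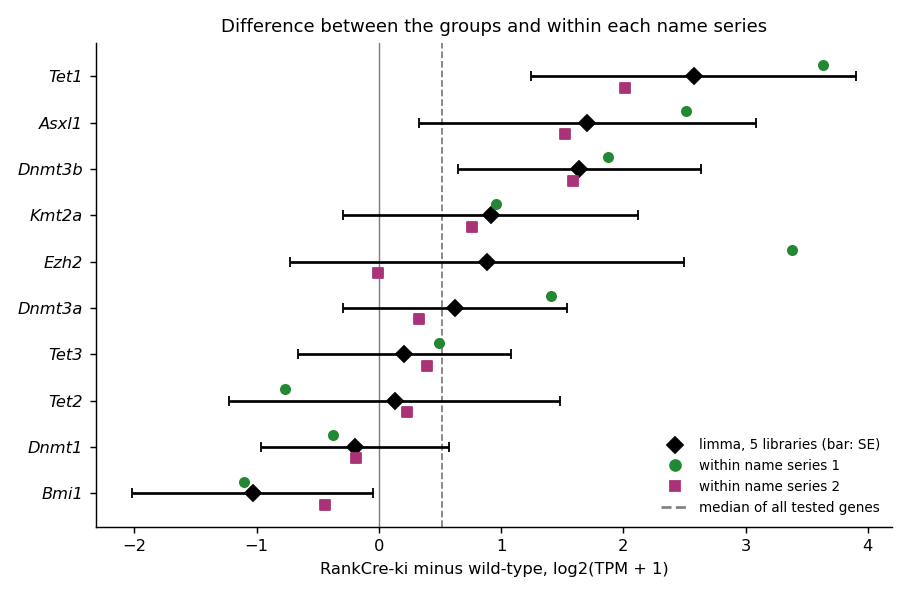
The log2 difference of each regulator (RankCre-ki minus wt, log2(TPM + 1) scale, points with bars for 1 SE) is shown with the median of all 13981 tested genes, 0.52, as a dashed line. Tet1 has the highest value, 2.58, Bmi1 the lowest, -1.03, and every bar spans at least 0.77 to each side.

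Of the DNA methyltransferases, Dnmt3b was higher in both RankCre-ki libraries, whereas Dnmt1 and Dnmt3a overlapped between the groups. Dnmt3b, which places methyl groups de novo and is best known from early embryos, lies on chr2:153649450-153687730 (GRCm38, plus strand, 24 exons in its longest transcript). Its level was 6.27, 4.62 and 19.3 TPM in wt replicates 1 to 3 and 31.1 and 25.7 TPM in RankCre-ki replicates 1 and 2. Both RankCre-ki libraries lay above all wt libraries, of which replicate 3 stood well above the other two. The group means were 10.1 ± 8.06 TPM (SD, n = 3) and 28.4 ± 3.79 TPM (SD, n = 2), and the log2 difference was 1.64 ± 0.99 (adjusted p = 0.881, limma). It was 1.88 within series 1 and 1.58 within series 2. The difference did not pass the test. With both RankCre-ki libraries above all wt libraries, the value within each series could only be positive.

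Dnmt3a, the other de novo methyltransferase and the one linked to HSC self-renewal, lies on chr12:3806007-3914443 (plus strand, 23 exons). It stood at 6.32, 19.8 and 19.4 TPM in wt and at 24.9 and 18.5 TPM in RankCre-ki, so that wt replicate 1 was the low library and the other 4 lay close together. The log2 difference was 0.62 ± 0.92 (adjusted p = 0.983, limma), 1.41 within series 1 and 0.33 within series 2. Without wt replicate 1 it was 0.12, and it was 0.14 with median-ratio scaling and 0.18 when quantile-normalized. Dnmt1, the maintenance methyltransferase, lies on chr9:20907209-20959888 (minus strand, 39 exons) and had the smallest spread of the 10 genes, with a 2.10-fold range over the 5 libraries. It stood at 30.9, 14.8 and 31.2 TPM in wt and 18.9 and 23.6 TPM in RankCre-ki, the RankCre-ki values falling between the wt values. The log2 difference was -0.20 ± 0.77 (adjusted p = 0.992, limma), and with 1 library left out it ranged from -0.54 without wt replicate 2 to -0.02 without wt replicate 3. It was -0.68 with median-ratio scaling and -0.57 when quantile-normalized. Before any rescaling, Dnmt1 and Dnmt3a thus differed between the groups by less than the spread within wt.

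A gene's share of its enzyme family does not change when a library is multiplied by a single factor, and was compared for the 3 families by an exact 2-sided permutation test. Dnmt1 made up 71.1%, 37.8% and 44.6% of the summed DNA methyltransferase TPM in wt and 25.2% and 34.9% in RankCre-ki. Both RankCre-ki shares were the lowest of the 5, at 30.03% ± 6.82 (SD, n = 2) against 51.2% ± 17.6 (SD, n = 3). The difference of -21.1 percentage points was -11.2 without wt replicate 1. Dnmt3b made up 14.4%, 11.8% and 27.6% in wt and 41.5% and 37.9% in RankCre-ki, and both RankCre-ki shares were the highest. For each of these the exact permutation p was 0.2, the smallest possible, and 0.533 after adjustment over the 8 shares compared, so neither passed. The Dnmt3a share overlapped between the groups, with 14.5%, 50.5% and 27.7% in wt and 33.3% and 27.2% in RankCre-ki (exact permutation p = 1). In RankCre-ki replicates 1 and 2 Dnmt3b was the largest of the 3 shares, which it was in none of the wt libraries.

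**Figure D3:**
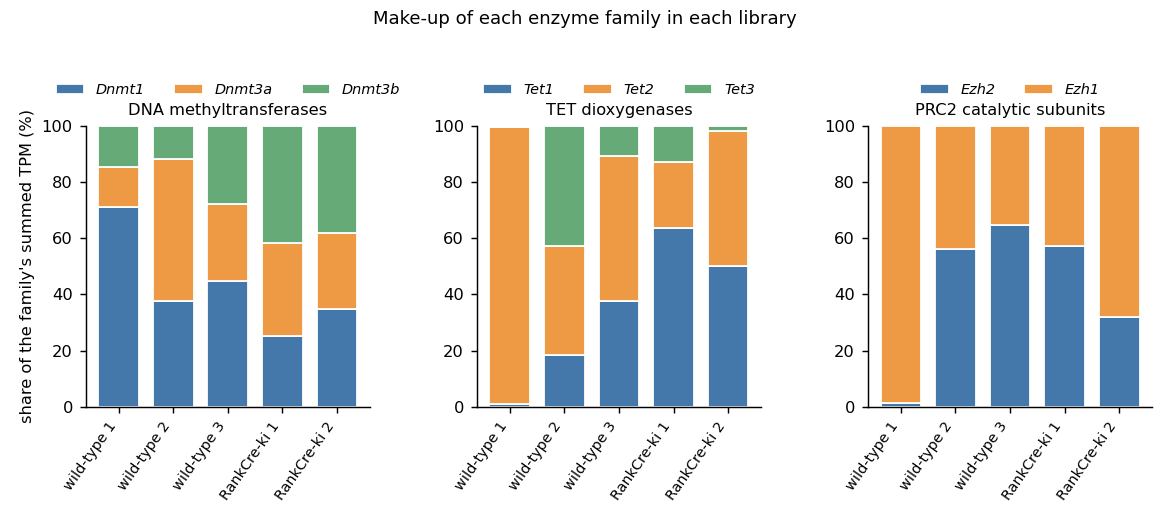
Stacked bars give, for each library, the share (%) of each gene in the summed TPM of its family, for the DNA methyltransferases, the TET dioxygenases and the PRC2 catalytic subunits. The Dnmt3b share is 41.5% and 37.9% in RankCre-ki and at most 27.6% in wt, the Tet1 share 63.7% and 50.2% against at most 37.6%, and the Ezh2 share is 1.25% in wt replicate 1 alone and at least 31.8% elsewhere.

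Among the TET dioxygenases, Tet1 was the regulator with the largest difference between the groups, and Tet2 and Tet3 overlapped. Tet1 lies on chr10:62804570-62908996 (minus strand, 13 exons). It stood at 0.247, 0.850 and 5.54 TPM in wt and at 13.0 and 14.5 TPM in RankCre-ki. The RankCre-ki libraries were close to each other and above all wt libraries, and the wt libraries spread widely, with replicate 3 the highest. The means were 2.21 ± 2.90 TPM (SD, n = 3) and 13.8 ± 1.04 TPM (SD, n = 2). On the log2 scale the difference was 2.58 ± 1.33 (unadjusted p = 0.0889, adjusted p = 0.859, limma), and 94.7% of all tested genes had a smaller difference. It was 3.64 within series 1 and 2.01 within series 2.

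Tet2, the member of the family most often lost in clonal haematopoiesis, lies on chr3:133463679-133545139 (minus strand, 11 exons). It stood at 24.3, 1.80 and 7.63 TPM in wt and at 4.78 and 13.9 TPM in RankCre-ki. The wt libraries spanned the RankCre-ki libraries on both sides. The log2 difference was 0.13 ± 1.36 (adjusted p = 0.996, limma), and it had no stable sign, being -0.30 with median-ratio scaling, -0.68 when quantile-normalized, -0.76 within series 1 and 0.23 within series 2. Tet3 lies on chr6:83362373-83459084 (minus strand, 11 exons) and was the lowest of the 10 genes by the mean of the 5 libraries, though Asxl1 was lower in wt replicates 1 and 2. It stood at 0.0421, 1.99 and 1.55 TPM in wt and 2.63 and 0.463 TPM in RankCre-ki. The groups overlapped, and the log2 difference of 0.21 ± 0.87 (adjusted p = 0.992, limma) became -0.01 with median-ratio scaling and -0.86 when quantile-normalized.

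Within the TET family the leading gene differed between libraries. Tet2 made up 98.8%, 38.9% and 51.8% of the summed TET TPM in wt and 23.4% and 48.2% in RankCre-ki (exact permutation p = 0.4, adjusted 0.8), and these overlapped. The difference of -27.4 percentage points was -9.56 without wt replicate 1. The Tet1 share was 1.003%, 18.3% and 37.6% in wt and 63.7% and 50.2% in RankCre-ki. Tet1 was the leading TET gene in both RankCre-ki libraries and Tet2 that of wt replicates 1 and 3, with a difference in the Tet1 share of 38.0 percentage points (exact permutation p = 0.2, the smallest possible, adjusted 0.533). The Tet3 share ranged from 0.171% to 42.8% in wt and stood at 12.9% and 1.61% in RankCre-ki. Tet3 led in wt replicate 2, the library with the lowest summed TET level, 4.64 TPM, against 14.7 to 28.8 TPM in the others.

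Asxl1, a subunit that activates the deubiquitylase Bap1 in PR-DUB, lies on chr2:153345829-153404007 (plus strand, 12 exons). It stood at 0.00264, 0.501 and 7.99 TPM in wt and at 9.54 and 4.73 TPM in RankCre-ki. The first of these is close to no signal, and wt replicate 3 lay between the RankCre-ki libraries. Its log2 difference was 1.71 ± 1.38 (adjusted p = 0.924, limma). It was 0.56 when quantile-normalized, 1.08 without wt replicate 1 and 1.27 without RankCre-ki replicate 1. Without wt replicate 3 it was 2.66 with an unadjusted limma p of 0.0377, and Tet1 then had an unadjusted p of 0.0320, but the adjusted p of these was still 0.401 and 0.399. At the Asxl1 locus the gene 2500004C02Rik overlaps on the opposite strand and had 0.605, 29.2 and 16.9 TPM in wt and 0.371 and 3.18 TPM in RankCre-ki. Whether strand was used in making the TPM is not given in the sources used here, so signal from the 2 genes could not be told apart where they overlap.

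Ezh2, the main catalytic subunit of PRC2 in dividing cells, lies on chr6:47530139-47595341 (minus strand, 20 exons). It stood at 0.164, 22.9 and 43.8 TPM in wt and at 31.6 and 11.1 TPM in RankCre-ki. Wt replicate 1 was near 0, and the other 4 libraries overlapped. The log2 difference of 0.88 ± 1.61 (adjusted p = 0.988, limma) rested on that library, since without it the value was -0.72. It was 3.38 within series 1, which holds wt replicate 1, and -0.01 within series 2. Ezh1, the catalytic subunit known from resting cells, was steadier, with 13.0, 17.9 and 23.7 TPM in wt and 23.7 and 23.8 TPM in RankCre-ki. The Ezh2 share of the summed Ezh1 and Ezh2 TPM was 1.25%, 56.1% and 64.9% in wt and 57.2% and 31.8% in RankCre-ki, a difference of 3.75 percentage points (exact permutation p = 1). In wt replicate 1 nearly all of the signal for a PRC2 catalytic subunit was therefore Ezh1.

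Bmi1, a PRC1 subunit that represses Cdkn2a and is needed for HSC self-renewal, lies on chr2:18677018-18686629 (plus strand, 10 exons). It stood at 14.2, 35.3 and 54.2 TPM in wt and at 31.9 and 6.07 TPM in RankCre-ki. RankCre-ki replicate 2 was the lowest of all libraries and RankCre-ki replicate 1 fell among the wt libraries. Its log2 difference was -1.03 ± 0.99 (adjusted p = 0.944, limma), and 5.01% of all tested genes had a lower one. Without RankCre-ki replicate 2 it was 0.08. Cdkn2a, the classical target of Bmi1, and Cdkn2b were listed at 0 in all 5 libraries.

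Kmt2a, the histone H3 lysine 4 methyltransferase also called Mll1, lies on chr9:44803355-44881296 (minus strand, 36 exons). It stood at 4.71, 4.18 and 2.93 TPM in wt and at 6.65 and 10.1 TPM in RankCre-ki. Both RankCre-ki libraries lay above a narrow wt range, with means of 3.94 ± 0.914 TPM (SD, n = 3) and 8.36 ± 2.42 TPM (SD, n = 2). In log2 units the difference came to 0.91 ± 1.21 (adjusted p = 0.982, limma), 0.95 within series 1 and 0.76 within series 2. The SE is wide beside the gene's own SDs on the log2 scale, 0.28 in wt and 0.38 in RankCre-ki, because limma draws the spread of each gene towards that of others at the same level. The separation also depended on scaling. The difference was 0.46 with median-ratio scaling and 0.06 when quantile-normalized, and under both the groups overlapped, whereas Dnmt3b and Tet1 stayed above wt. AC061963.1, an antisense gene inside Kmt2a, had 4.44, 3.18 and 0 TPM in wt and 1.10 and 5.66 TPM in RankCre-ki, levels close to those of Kmt2a itself in some libraries.

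Ordered by the mean of the 5 libraries, Bmi1 was highest with 28.3 ± 18.9 TPM (SD, n = 5), followed by Dnmt1 with 23.9 ± 7.25, Ezh2 with 21.9 ± 17.05, Dnmt3a with 17.8 ± 6.89 and Dnmt3b with 17.4 ± 11.7 TPM. Tet2 with 10.5 ± 8.92 TPM, Tet1 with 6.83 ± 6.67, Kmt2a with 5.71 ± 2.78, Asxl1 with 4.55 ± 4.30 and Tet3 with 1.34 ± 1.07 TPM formed the lower end. For none of the neighbours in this order was the mean log2 difference larger than its SD over the 5 libraries, so neighbours were not separated. The order also differed by group. By the RankCre-ki means Dnmt3b (28.4 TPM) was highest and Bmi1 (19.0 TPM) stood below Dnmt3a, Ezh2 and Dnmt1, and by the wt means Dnmt3b (10.1 TPM) stood below Tet2 (11.2 TPM). Dnmt1 led in wt replicate 1, Bmi1 in wt replicates 2 and 3 and RankCre-ki replicate 1, and Dnmt3b in RankCre-ki replicate 2. Tet1, Tet3 and Kmt2a, in the lower end, have transcripts of up to 14.4, 10.9 and 16.5 kb, the longest of the 10. With protein-coding genes split at the quartiles of transcript length, the median log2 difference was 0.38, 0.71, 0.61 and 0.43 from the shortest to the longest.

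The genes most like the 3 highest regulators were sought among the other regulators and 8 lists of partner genes, by the root mean square difference of centred log2 values over the 5 libraries. Bmi1 was followed most closely by Psip1 (0.18) and Rbbp7 (0.44), where Bmi1 itself varied by 1.05 around its mean. Dnmt1 was nearest to Dpy30 (0.15) and Kdm5a (0.39), with 0.40 for Dnmt1 itself, and Ezh2 to Rybp (0.64) and Rbbp5 (0.65), with 1.89 for Ezh2. All these values share the same 5 libraries and are a description of the pattern.

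Partner genes of the regulators were followed in 8 lists with 107 genes in all, of which 97 were tested. None passed the threshold. Of the 97, 15 lay above and 5 below wt in both RankCre-ki libraries, shares near the 18.8% and 3.71% of all tested genes, which are the background for the counts of each list, and the median log2 difference was 0.31, against 0.52 for all genes. Only Smug1 and L3mbtl2 had an unadjusted limma p under 0.05, both higher, and both entered the test through the RankCre-ki libraries alone, as did 4.68% of all tested genes and none of the 10 regulators. Among 12 partners of DNA methylation, 11 were tested, with 1 above, 2 below and a median of -0.19. Uhrf1, which brings Dnmt1 to newly replicated DNA, was listed at 0 in wt replicate 1, had 11.9 and 13.1 TPM in the other wt libraries and 20.7 and 21.4 TPM in RankCre-ki (log2 difference 1.96 ± 1.45, adjusted p = 0.916, limma). Mbd2, a reader of methylated CpG, had 30.8, 24.5 and 49.8 TPM in wt and 16.003 and 13.7 TPM in RankCre-ki, the lower side throughout (-1.13 ± 0.75, adjusted p = 0.892, limma). Neither difference passed the test.

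Of 12 genes that take part in demethylation, 11 were tested, with 2 above, none below and a median log2 difference of 0.64. Smug1, a DNA glycosylase, had 0.0772, 0.557 and 0.0223 TPM in wt and 16.995 and 7.13 TPM in RankCre-ki. It reached 1 TPM in the RankCre-ki libraries only, so it was tested because it was high there, and its values are a description. Idh2, which makes the 2-oxoglutarate that TET enzymes consume, had 67.3, 73.5 and 194 TPM in wt and 288 and 148 TPM in RankCre-ki, and the groups overlapped.

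Of the other 12 PRC2 genes on the list, 10 were tested, with 1 above, none below and a median log2 difference of -0.04. The one above was the histone-binding subunit Rbbp4, at 43.7, 45.8 and 53.0 TPM in wt and 81.3 and 71.3 TPM in RankCre-ki (0.68 ± 0.54, adjusted p = 0.920, limma). Phf19, an accessory subunit, had 5.62, 0.763 and 2.02 TPM in wt and 1.42 and 0.193 TPM in RankCre-ki. The core subunits Eed and Suz12 overlapped between the groups. Eed had 42.2, 9.26 and 87.6 TPM in wt and 71.5 and 43.1 TPM in RankCre-ki. Suz12 had 0.0829, 37.1 and 14.5 TPM in wt and 12.3 and 3.90 TPM in RankCre-ki, and like Ezh2 was near 0 in wt replicate 1.

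The PRC1 list had 22 genes, all tested, with 6 above and 1 below wt and a median log2 difference of 0.88. Kdm2b, which carries a PRC1 variant to CpG islands, had 0.673, 6.52 and 3.997 TPM in wt and 25.2 and 14.6 TPM in RankCre-ki (2.35 ± 1.27, adjusted p = 0.874, limma). L3mbtl2, also of a PRC1 variant, was listed at 0 in all 3 wt libraries and had 8.08 and 3.87 TPM in RankCre-ki. It too was tested only because it was high in RankCre-ki. Rnf2, the main ubiquitin ligase of PRC1, overlapped, with 20.1, 56.0 and 69.5 TPM in wt and 73.9 and 48.1 TPM in RankCre-ki. L3mbtl2 is among the 6 of 22 counted above wt, where 18.8% of all tested genes were, and this count was not repeated under other scalings.

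On the PR-DUB list 9 of 10 genes were tested, with 1 above, none below and a median log2 difference of 0.64. Bap1, the deubiquitylase that Asxl1 activates, had 9.31, 3.29 and 7.99 TPM in wt and 33.3 and 17.05 TPM in RankCre-ki (1.76 ± 1.04, adjusted p = 0.881, limma). Hcfc1, a partner of Bap1, had 5.15, 4.65 and 34.9 TPM in wt and 37.5 and 20.3 TPM in RankCre-ki, so the groups overlapped. Of 19 Trithorax and COMPASS genes 18 were tested, with 2 above, 1 below and a median of 0.02. Men1 and Psip1, which join in the Kmt2a complex, went in opposite directions without passing the test. Men1 had 17.9, 16.6 and 23.1 TPM in wt and 68.8 and 33.2 TPM in RankCre-ki (1.29 ± 0.72, adjusted p = 0.881, limma). Psip1 had 36.3, 81.1 and 103 TPM in wt and 56.7 and 12.4 TPM in RankCre-ki (-1.30 ± 0.82, adjusted p = 0.887, limma).

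The 8 demethylases that oppose these complexes were all tested, with 2 above (Kdm2b and Kdm5c), none below and a median log2 difference of 0.13. Kdm5c, which removes methylation from histone H3 lysine 4, had 0.280, 0.601 and 2.81 TPM in wt and 4.05 and 10.1 TPM in RankCre-ki (1.92 ± 1.15, adjusted p = 0.881, limma). Kdm6a, which removes the mark that Ezh2 places, had 0.117, 20.4 and 11.7 TPM in wt and 17.3 and 3.43 TPM in RankCre-ki, and Kdm6b, its relative, 5.67, 0.0235 and 0.0754 TPM in wt and 1.06 and 2.74 TPM in RankCre-ki. Both overlapped between the groups, and wt replicate 1 was the lowest library for Kdm6a and the highest for Kdm6b.

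Of 16 genes known as targets of Kmt2a or of Polycomb 12 were tested, with 1 above, 1 below and a median log2 difference of -0.11. Hoxa7 had 0.0892, 28.9 and 29.4 TPM in wt and 58.2 and 39.0 TPM in RankCre-ki (2.29 ± 1.502, adjusted p = 0.891, limma). Hoxa9, at 26.5, 51.7 and 107 TPM in wt and 85.4 and 68.1 TPM in RankCre-ki, and Meis1, at 103, 136 and 198 TPM in wt and 270 and 112 TPM in RankCre-ki, overlapped between the groups. Cdkn1a, a cell cycle inhibitor, was lower in both RankCre-ki libraries, at 0.275 and 0.668 TPM against 4.79, 6.67 and 4.59 TPM in wt (-2.11 ± 1.09, adjusted p = 0.858, limma).

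**Figure D4:**
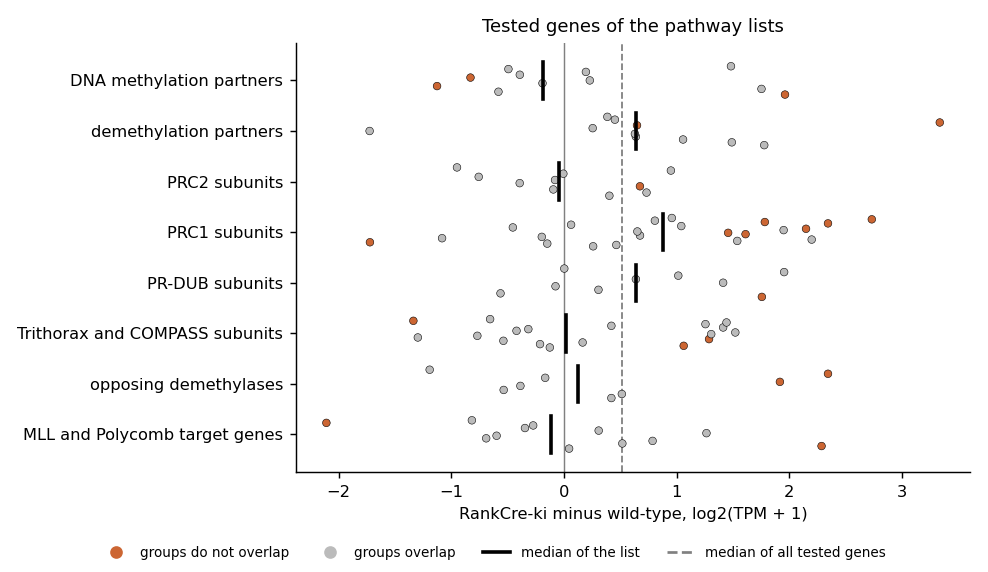
Each point is the log2 difference (RankCre-ki minus wt, log2(TPM + 1) scale) of a tested gene of 1 of the 8 partner lists, with a bar for the list's median and a dashed line at the median of all tested genes, 0.52. List medians run from -0.19 for the DNA methylation partners to 0.88 for PRC1, and each list spreads to both sides of the dashed line.

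Some properties of the libraries moved with the groups. Genes at 1 TPM or more numbered 9021 to 11084 in wt and 12801 and 16386 in RankCre-ki, and mitochondrial transcripts took 14.7% to 21.0% of the TPM in wt and 10.7% and 8.21% in RankCre-ki. Among the regulators 4, 2 and 0 were under 1 TPM in wt replicates 1 to 3 and 0 and 1 in RankCre-ki, beside 31.1%, 37.5%, 24.4%, 16.01% and 9.03% of tested genes. Of 12 genes of HSC identity or the sort gate, Kit was at 20.4 to 145 TPM and Slamf1 at 16.5 to 41.8 TPM, but Hoxb5 was at 0 in wt replicates 1 and 3 and Fgd5 at 0.184 TPM in wt replicate 1. Among the markers of cells outside the sort gate, Cd79a, Ly6g and Elane were at 0 in all libraries, but the summed level of the list was 71.0 to 124 TPM in wt and 270 and 682 TPM in RankCre-ki. Most of that sum was Hbb-bt, a globin gene, with 36.2, 124 and 109 TPM in wt and 251 and 632 TPM in RankCre-ki, while Hba-a1 had 31.6, 0 and 3.78 TPM in wt and 1.58 and 2.87 TPM in RankCre-ki. S100a8 and Klrb1c were under 1 TPM in wt and at 8.31 and 12.9 TPM and at 4.398 and 12.8 TPM in RankCre-ki. S100a9, in contrast, had 2.17, 0 and 0 TPM in wt and 0 and 0 TPM in RankCre-ki. Mpo overlapped, with 0.625, 0 and 1.30 TPM in wt and 0 and 1.99 TPM in RankCre-ki. Cd48, against which cells were sorted, was at 0 in wt and at 4.92 and 5.62 TPM in RankCre-ki. The 14 macrophage and osteoclast markers summed to 21.2 to 54.3 TPM in wt and 52.9 and 59.9 TPM in RankCre-ki, with Adgre1, C1qc and Marco at 0. Of this list Cd68 had 0.362, 32.5 and 38.1 TPM in wt and 12.8 and 46.4 TPM in RankCre-ki. Acp5 had 14.8, 0 and 14.2 TPM in wt and 12.7 and 0 TPM in RankCre-ki. Csf1r, of which RankCre-ki mice carry a null and a floxed allele, had 2.39, 0 and 0.234 TPM in wt and 17.5 and 6.46 TPM in RankCre-ki, the higher side throughout. The 11 niche cell markers summed to 53.8 to 97.8 and 58.9 to 86.4 TPM, with Sp7 at 0. Most of that sum was Pecam1, at 18.3 to 33.1 TPM over all libraries, and Emcn, at 22.9 to 59.6 TPM. RankCre-ki replicate 2 is labelled female but had 62.5 TPM of the Y-linked Eif2s3y and 0.0229 TPM of Xist, and wt replicate 1, labelled male, 41.6 and 0.0273 TPM. These 2 libraries are those of series 1, so sex and series cannot be told apart. The part of these properties in the levels of the regulators was not tested. In bulk samples fewer cells of a type and less RNA per cell cannot be told apart.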

How the data were processed

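Bulk RNA sequencing of 5 pools of sorted mouse bone marrow HSCs was analysed (3 wt, 2 RankCre-ki, grouped by sample title). RNA was primed with oligo(dT), template-switched, amplified by PCR and tagmented. The authors deposited TPM per gene, and the software that made the TPM is not given in the sources used here. The authors' alignment, made for a count-based test not used here, was to mm10 with gsnap, with counting by featureCounts 2.0.1 after bcl2fastq 2.20.0. TPM keep no depth, so only the spread between libraries shows the precision of a value, and no counting interval is given. TPM are shares of a fixed total of 1000000, so a rise of some genes lowers others.

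After removal of 92 spike-in rows, all at 0, 55335 genes remained. The 13981 genes that reached 1 TPM in 2 or more libraries were tested on log2(TPM + 1), a scale that understates the change of low genes, with limma 3.58.1 in R 4.3.3 (lmFit, eBayes with trend, no covariate), adjusted by Benjamini-Hochberg, as TPM are not counts. The code was tested on simulated data. Family shares were compared by an exact permutation test (scipy 1.17.1). Positions came from GENCODE M21 (GRCm38), which held 55154 of the identifiers, and promoters from RefSeq. Named genes were the 10 regulators, from each partner list the 2 tested genes with the smallest unadjusted p, and a fixed set of known partners (Ezh1, Uhrf1, Hoxa9, Meis1, Cdkn2a, Eed, Suz12, Rnf2, Men1, Bap1, Kdm6a, Kdm6b). Cdkn2b, overlapping genes, Idh1, Mbd6, Tdg and markers other than Kit, Slamf1, Cd48, Mki67, Csf1r, Xist and Eif2s3y were named after their values were seen. The regulators, the lists and the rule were chosen with earlier results of these data known. Alternatives covered the pseudocount, filter, scaling, threshold, name series, replicate number and each library left out.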

Additional observations from a re-analysis of the deposited data

How the results depend on the processing

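The count of regulators past the threshold was 0 under all 14 alternatives, and that of partner genes 0 under all 12. The median difference of the regulators relative to all genes, 0.24, was -0.0046 with a pseudocount of 0.1, 0.52 with no filter, and, in alternatives chosen after seeing the data, 0.65 within series 1 and -0.035 within series 2. It ran from 0.010 (without RankCre-ki replicate 1) to 0.53 (without wt replicate 2) with 1 library left out. Regulators above wt numbered 2 under either scaling, where 12.2% and 11.6% of all genes lay above. With 1 library left out they numbered 3 to 6, where 24.2% to 34.8% of all genes did. The 6 arose without RankCre-ki replicate 2, when a single library is set against 3 and 34.8% of all genes lie above. Those below wt numbered 0 to 1. Bmi1 was below without wt replicate 1, where 13.7% of all genes were, and without RankCre-ki replicate 1, where 13.1% were. Dnmt1 was below without wt replicate 2, where 7.43% of all genes were. Tet2 turned to -0.30 with median-ratio scaling, -0.68 with quantile normalization, -0.19 with name series as a block and -0.76 within series 1, and ran from -0.67 to 0.92 with 1 library left out. Tet3 turned to -0.014 and -0.86 under these scalings, ran from -0.45 to 0.86 with 1 library left out, and was not tested at a minimum of 5 TPM. Ezh2 ran from -0.72 to 1.91 and was -0.0052 within series 2, and Bmi1 ran from -2.14 to 0.077. The difference in the Ezh2 share was -3.30 percentage points within series 2 and ran from -15.995 to 16.4 with 1 library left out. The cause of these turns was not tested beyond the libraries named. Replicate numbers in the titles do not mark a shared origin, and same-numbered libraries deviated apart (r = -0.38 for replicate 1, -0.20 for replicate 2, across genes). With replicate number as a block, 0 regulators and 1 gene in all passed the threshold, with a smallest adjusted p of 0.983 among the regulators. Over all genes the threshold was passed by 17 genes without RankCre-ki replicate 1 and 8 without RankCre-ki replicate 2, where the lone library is assumed to vary like the others. TPM hold no depth, so values under 1 TPM have no known counting error.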

Other observations

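Ezh2, alone of the regulators, and several partner genes were low in a single library, a pattern noted after the values were seen. Of the 107 tested regulators and partners, 13 were under 1 TPM in wt replicate 1 and at 3 TPM or more in each of the other 4 libraries, where 7.02% of all tested genes had this pattern. Among them were Ezh2 (0.164 TPM), Suz12 (0.0829 TPM), Uhrf1 (0 TPM), Hoxa7 (0.0892 TPM) and Kdm6a (0.117 TPM). Wt replicate 2 had 3 such genes (Idh1, Mbd6 and Tdg), where 3.64% of all tested genes did, and the other libraries had none.

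A list of 20 genes of S phase, the phase of DNA replication, summed to 668, 1636 and 2105 TPM in wt and 2099 and 1205 TPM in RankCre-ki. The order of the 5 libraries by this sum, from wt replicate 1 through RankCre-ki replicate 2, wt replicate 2 and RankCre-ki replicate 1 to wt replicate 3, was also their order by Ezh2. None of the other 9 regulators had it, and 292 of the 13981 tested genes (2.09%) did, 1 of them on the S phase list. A list of 20 genes of G2 and M phase summed to 72.2, 365 and 169 TPM in wt and 151 and 308 TPM in RankCre-ki, another order. Of its 17 tested genes 15 were positive, where 72.3% of all tested genes were. Above wt lay 7, where 18.8% of all tested genes did, and 1 (Mki67) lay below. Of the 7, Bub1, Bub1b, Cenpf and Tpx2 were under 1 TPM in every wt library. They were tested only because they were high in RankCre-ki. The order was noticed after the values were seen and describes 5 libraries.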
